A study of Mus musculus with 9 samples.

Results

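The angiopoietin and Tie receptor system was followed through 6 genes in cultured mouse lung endothelial cells (MLEC) that carried or lacked the stress-activated kinases JNK1 and JNK2. The genes are the ligands *Angpt1* and *Angpt2*, the receptors *Tek* (Tie2) and *Tie1*, the receptor phosphatase *Ptprb* (VE-PTP) and the transcription factor *Foxo1*. They were taken by symbol from 37104 loci in the deposited tables, and each symbol belonged to 1 locus. Earlier results of these data were known when they were chosen. *Angpt2*, the most abundant of them, had a mean level in E3KO MLEC that was 71.1% of that in the control MLEC, with all 3 E3KO libraries below all 6 control libraries, as held for 11.5% of all genes tested. *Foxo1* showed the same separation at 88.0% of the control mean, though not after centring of the libraries, and *Angpt1* was at or under 1.01 FPKM throughout. *Tek* levels in the groups, as deposited, overlapped. None of the 5 genes abundant enough to be tested, all but *Angpt1*, passed the threshold of the test across all genes.

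RNA-seq was carried out on 9 libraries, 3 in each of 3 groups of C57BL/6J adult mice aged 10 to 12 weeks. ECtrl MLEC carried Cdh5-Cre with wild-type Jnk1 and Jnk2 alleles (Jnk1+/+ and Jnk2+/+). EfCtrl MLEC carried the floxed alleles (Jnk1LoxP/LoxP and Jnk2LoxP/LoxP) without Cre, and E3KO MLEC carried both Cdh5-Cre and the floxed alleles. All 3 groups were also Jnk3-/-, so no group was wild type at the 3 JNK genes. Cdh5-Cre is driven by the promoter of VE-cadherin and acts in endothelial cells and in blood cells derived from them. Each library was a separate isolation from the pooled lungs of several mice by selection for ICAM2 and culture, so the values describe cultured cells and not the lung. The authors deposited FPKM, a read level scaled to transcript length and library size, for each locus in each library.

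In blood vessels ANGPT1, made mainly by pericytes and other mural cells, binds the endothelial receptor TIE2 and activates it. ANGPT2 is made by endothelial cells, stored in Weibel-Palade bodies, and acts on TIE2 as a weak or context-dependent ligand. TIE1, long called an orphan receptor, modulates TIE2, while VE-PTP removes phosphate from TIE2. Active TIE2 signals through PI3 kinase and AKT, which keeps FOXO1 out of the nucleus, and *Angpt2* is a known target of FOXO1. TIE2 activation stabilizes vessels, in the lung as elsewhere.

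The endothelial label was checked with 10 markers, all of which were above 50 FPKM on average in both controls and E3KO MLEC. *Pecam1* was at 704 ± 40.3 FPKM (SD, n = 6) in the controls and 722 ± 77.3 (SD, n = 3) in E3KO MLEC. Lymphatic endothelial genes were also abundant, with *Lyve1* at 1689 ± 185 FPKM in the controls and *Prox1* at 134 ± 15.4 (SD, n = 6). *Mapk9* (JNK2), a targeted gene, was between 42.7 and 50.9 FPKM in the controls and at 27.6, 35.1 and 20.7 in E3KO replicates 1 to 3. *Mapk8* (JNK1), the other targeted gene, was between 14.0 and 17.9 FPKM in the controls, and at 8.77 and 4.65 in E3KO replicates 2 and 3. In the library labelled E3KO replicate 1, *Mapk8* stood at 20.7 FPKM, above every control. *Mapk10* (JNK3) did not exceed 0.270 FPKM in any library. The FPKM of that library also summed to 9841812, with 96.4% of the sum in 10 symbols, against 656089 to 908401 in the other 8 libraries. Differences of the 6 genes from both controls, and most list calls, are therefore also given without it. The ratios, the correlations and the shares over all genes include it, as do other values unless stated.

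*Angpt2* lies on the minus strand of chromosome 8 (mm10, 18690263 to 18741562). Its level was 1340, 1029 and 1198 FPKM in the ECtrl libraries. In the EfCtrl libraries it was 1212, 970 and 1140 FPKM. In the E3KO libraries it was 868, 876 and 704 FPKM, so the highest E3KO library was below the lowest control. Of the 10605 genes tested, those averaging at least 2 FPKM in some group, 11.5% had all 3 E3KO libraries below all 6 controls. The mean was 1148 ± 134 FPKM (SD, n = 6) in the controls and 816 ± 96.9 (SD, n = 3) in E3KO MLEC. The fitted difference was -0.49 on the log2(FPKM + 1) scale (SE 0.13, 95% interval -0.79 to -0.19). With limma and Benjamini-Hochberg adjustment over the 10605 genes, the adjusted p was 0.0724, which missed the 0.05 threshold, against an unadjusted p of 0.00508. An unadjusted p under 0.05 was reached by 23.8% of all genes tested. By the exact two-sided permutation test of 3 against 6 libraries, the p was 0.0119, the smallest this design allows; it was 1 of 6 such tests, 1 per gene, and is not adjusted for them.

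The direction of *Angpt2* was the same against either control, and the control libraries enter both the pooled and the single comparisons. Against ECtrl the log2 difference was -0.54 (SE 0.15, 95% interval -0.89 to -0.20), with an adjusted p of 0.101 by limma. Against EfCtrl it was -0.44 (SE 0.15, 95% interval -0.78 to -0.097), with an adjusted p of 0.191 by limma. Between the control groups, which share the absence of JNK3, *Angpt2* differed by -0.10 in EfCtrl relative to ECtrl (adjusted p = 1.0 by limma). The median gene differed by -0.083 between E3KO and the controls, and 12.6% of all genes tested had a lower log2 difference than *Angpt2*. Without the library labelled E3KO replicate 1 the *Angpt2* difference was -0.54, and both remaining E3KO libraries were below all controls. Without E3KO replicate 3, the lowest, it was -0.39.

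The span of *Angpt2* falls inside *Mcph1*, a gene for a chromosome condensation and DNA damage protein on the opposite strand, with 0 shared exon bases in the annotation. The deposited tables give both genes the locus of *Mcph1* (chromosome 8, 18595131 to 18803189), and whether strand was used in the quantification is not stated. *Mcph1* was at 38.5, 31.5 and 17.7 FPKM in ECtrl and at 23.1, 21.1 and 27.3 in EfCtrl. In E3KO MLEC it was at 16.4, 15.7 and 15.7 FPKM, below every control, as held for 11.5% of genes tested. Its log2 difference was -0.66 (SE 0.22, adjusted p = 0.124 by limma). After centring, the difference was -0.58 and 2 of 3 E3KO libraries were below all controls. Without centring and without the library labelled E3KO replicate 1, it was -0.68. The level of *Mcph1* was far under that of *Angpt2* in every library, and its part in the *Angpt2* values was not tested.

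*Angpt1*, the activating ligand, was barely detected. It lies on the minus strand of chromosome 15 (mm10, 42424723 to 42676977). Its level was 0.464, 0.325 and 0.131 FPKM in ECtrl and 0.142, 0.0962 and 0.229 in EfCtrl. In E3KO MLEC it was 1.01, 0.321 and 0.495 FPKM, so 2 of 3 E3KO libraries were above all controls and the third fell within them. The means were 0.231 ± 0.141 FPKM (SD, n = 6) and 0.608 ± 0.358 (SD, n = 3). The log2(FPKM + 1) difference was 0.37 (exact two-sided permutation p = 0.0476), a scale that understates changes of low genes. Without the library labelled E3KO replicate 1, which held the highest value, the difference was 0.20 and the exact permutation p was 0.214, where the smallest possible was 0.0357. The gene was under the 2 FPKM minimum of the limma fit, and with no minimum its adjusted p was 0.252. An antisense gene, *Gm17473*, shares 737 of the 5205 exon bases of *Angpt1*, so reads within those shared bases cannot be assigned without strand. Depth per gene was unknown, so no counting interval could be attached to values this low.

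Markers of pericytes, the usual source of ANGPT1, were mixed. *Pdgfrb*, *Cspg4* and *Rgs5* stayed at or below 0.440 FPKM. *Notch3* did not exceed 0.263 FPKM but was higher in every E3KO library (0.238 to 0.263) than in every control (at most 0.0947). *Cnn1*, also under the minimum, was lower in every E3KO library (at most 0.103 FPKM) than in every control (0.119 to 1.11). Of all genes tested, 5.18% had every E3KO library above every control and 11.5% had every E3KO library below. *Kcnj8*, a potassium channel subunit, was not near 0, at 8.74 ± 1.52 FPKM (SD, n = 6) in the controls and 8.98 ± 0.641 (SD, n = 3) in E3KO MLEC. The summed level of 11 pericyte and smooth muscle markers was 15.9 to 45.2 FPKM in ECtrl, 31.7 to 69.7 in EfCtrl and 20.4 to 26.7 in E3KO MLEC, and 0 of the 4 tested passed the test in either direction. *Acta2*, smooth muscle actin, had the smallest p among them, with 19.0 ± 11.2 FPKM (SD, n = 6) in the controls and 5.52 ± 0.934 (SD, n = 3) in E3KO MLEC (log2 difference -1.39, SE 0.47, adjusted p = 0.129 by limma). *Abcc9*, the channel's regulatory subunit, came next, with 2.46 and 3.90 FPKM on average (log2 difference 0.50, SE 0.21, adjusted p = 0.202 by limma). *Tagln* averaged 10.9 and 5.24 FPKM (log2 difference -0.85, SE 0.40, adjusted p = 0.244 by limma). Of the 8 fibroblast markers, 4 were tested and 0 passed, and their summed level was 5.28 to 15.9, 8.75 to 27.6 and 4.58 to 13.2 FPKM in ECtrl, EfCtrl and E3KO. *Col1a2* and *Col1a1*, chains of fibrillar collagen, had the smallest p of that list (adjusted p = 0.103 and 0.135 by limma), with means of 4.48 and 2.98 FPKM in the controls and 0.546 and 0.366 in E3KO MLEC. Their means were lower in ECtrl (2.86 and 1.60 FPKM) than in EfCtrl (6.10 and 4.37). *Col3a1* and *Dcn*, also tested, changed little, with means of 3.15 and 4.49 FPKM in the controls and 2.74 and 4.17 in E3KO MLEC. For the pericyte and smooth muscle list, the E3KO sums lay inside the ECtrl range and below the EfCtrl range.

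*Tek* encodes TIE2, the receptor of both angiopoietins. It lies on the plus strand of chromosome 4 (mm10, 94739289 to 94874976). *Tek* was at 43.9, 43.0 and 49.9 FPKM in ECtrl, at 45.3, 42.3 and 42.2 in EfCtrl, and at 39.9, 47.4 and 47.9 in E3KO MLEC. The groups overlapped, with the lowest value in the library labelled E3KO replicate 1 and the other 2 E3KO libraries inside the control range. The means were 44.4 ± 2.92 FPKM (SD, n = 6) and 45.1 ± 4.51 (SD, n = 3), a log2 difference of 0.017 with a 95% interval of -0.21 to 0.25 (adjusted p = 0.929 by limma). Against ECtrl it was -0.018 and against EfCtrl 0.053. When each library was centred on the median of the genes tested, the difference from ECtrl turned to 0.054. Without the library labelled E3KO replicate 1 the difference from both controls was 0.10, and 0.16 with centring as well. With both changes the 2 remaining E3KO libraries were above all controls. The share of all genes with this separation was not computed.

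*Tie1*, on the minus strand of the same chromosome (mm10, 118471191 to 118490061), was at 140, 105 and 140 FPKM in ECtrl and at 157, 136 and 140 in EfCtrl. In E3KO MLEC it was at 94.2, 125 and 110 FPKM. One E3KO library was below all controls, and the other 2 lay above the lowest ECtrl library but under all 3 EfCtrl libraries. The means were 136 ± 17.0 FPKM (SD, n = 6) and 110 ± 15.6 (SD, n = 3), a log2 difference of -0.31 (SE 0.14, 95% interval -0.62 to 0.0056, adjusted p = 0.217 by limma). The exact two-sided permutation p was 0.0714. Against EfCtrl the difference was -0.40 (95% interval -0.76 to -0.033, adjusted p = 0.247 by limma), and against ECtrl it was -0.22 (adjusted p = 0.457 by limma). Without the library labelled E3KO replicate 1, the lowest, the difference from both controls was -0.20 (exact permutation p = 0.25), a value more than 1.5 times smaller.

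*Ptprb*, on the plus strand of chromosome 10 (mm10, 116275523 to 116389535), encodes the phosphatase that acts on TIE2 and VE-cadherin. It was at 32.0, 43.5 and 49.2 FPKM in ECtrl, at 46.6, 47.7 and 52.4 in EfCtrl, and at 43.1, 52.1 and 53.6 in E3KO MLEC. The groups overlapped, and ECtrl was the most spread, with its replicate 1 the lowest of all libraries. The means were 45.2 ± 7.10 FPKM (SD, n = 6) and 49.6 ± 5.71 (SD, n = 3), a log2 difference of 0.14 (95% interval -0.20 to 0.48, adjusted p = 0.583 by limma). It was 0.24 without the library labelled E3KO replicate 1 and 0.054 without ECtrl replicate 1. The EfCtrl minus ECtrl difference was 0.25 and the E3KO minus ECtrl difference 0.26, and without ECtrl replicate 1 they were 0.076 and 0.092. *Ptprb* differed by 0.016 between E3KO and EfCtrl MLEC. After centring and without the library labelled E3KO replicate 1, the 2 remaining E3KO libraries were above all controls. The difference from both controls was then 0.29 (exact permutation p = 0.179).

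*Foxo1*, on the plus strand of chromosome 3 (mm10, 52268336 to 52353221), encodes the transcription factor restrained by TIE2 signalling. It was at 40.5, 39.3 and 42.5 FPKM in ECtrl and at 42.4, 39.0 and 42.8 in EfCtrl. In E3KO MLEC it was at 33.5, 37.3 and 37.8 FPKM, below every control library. The means were 41.1 ± 1.70 FPKM (SD, n = 6) and 36.2 ± 2.34 (SD, n = 3), a log2 difference of -0.18 (SE 0.086, 95% interval -0.38 to 0.017, adjusted p = 0.247 by limma). The exact two-sided permutation p was 0.0119, the smallest possible. The separation depended on the scale of the libraries. After centring, 2 of 3 E3KO libraries were below all controls and the difference was -0.11 (exact permutation p = 0.0238), while 8.19% of genes had all 3 E3KO libraries below all controls, *Angpt2* among them. Without the library labelled E3KO replicate 1 and without centring, the difference was -0.13, and both remaining E3KO libraries were below all controls. The exact permutation p was then 0.0357, the smallest possible. After centring and without that library, the difference was -0.069 (exact permutation p = 0.143). An antisense gene, *Gm20402*, shares 674 exon bases with *Foxo1*.

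**Figure D1:**
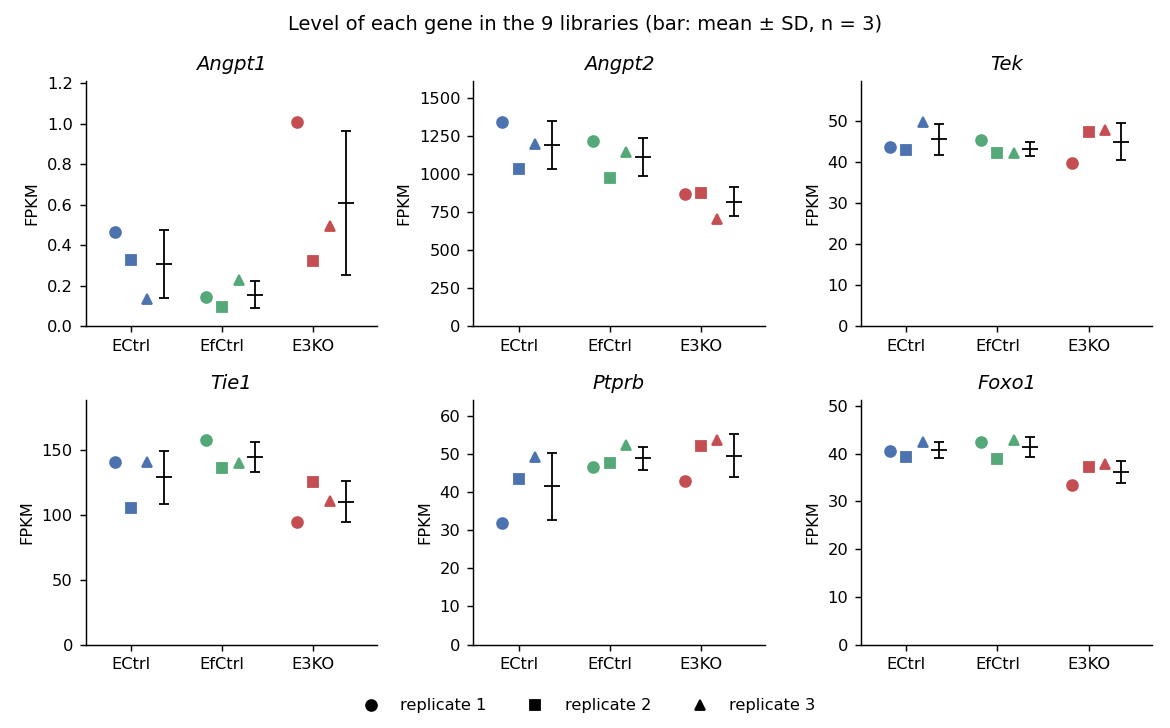
FPKM (vertical axes, each starting at 0) of the 6 genes in the 9 libraries by group, with the mean ± SD of the 3 libraries beside each group and a symbol for each replicate number. The 3 E3KO libraries sit below all 6 controls for *Angpt2* (704 to 876 against 970 to 1340) and, only without centring, *Foxo1*, while *Tek* and *Ptprb* overlap and *Angpt1* stays at or under 1.01.

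The size of the smaller differences depended on how libraries were scaled. The authors also deposited an FPKM for each group, with their own scaling between groups. These group values exceeded the means of the deposited library values by a median factor of 1.08 in ECtrl, 1.07 in EfCtrl and 1.17 in E3KO, which shifts E3KO by 0.13 on the log2 scale relative to the controls. The authors' group values of *Foxo1* were 42.5, 43.2 and 41.5 FPKM in ECtrl, EfCtrl and E3KO. For *Angpt2* they were 1298, 1185 and 960 FPKM, and for *Tie1* 144, 159 and 132. *Tek* was at 48.6, 45.3 and 52.4 FPKM on that scale, *Ptprb* at 44.5, 51.8 and 57.5, and *Angpt1* at 0.305, 0.160 and 0.702. On this scale too *Angpt2* was lowest in E3KO MLEC, whereas *Foxo1* was nearly level and *Tek* was highest in E3KO MLEC.

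Over all genes tested, limma called 509 of 10605 (4.8%) between E3KO and both controls, 163 (1.54%) higher and 346 (3.26%) lower in E3KO MLEC. After centring, the calls were 477 (4.5%), with 209 higher and 268 lower, so the share of higher calls went from 32.0% to 43.8%. None of the 5 genes tested here was among the calls in either fit. The shares called were 2.25% against ECtrl and 0.952% against EfCtrl, again with 0 of the 5. Between EfCtrl and ECtrl limma called 0 genes (0.0%), with 195 genes (1.84%) at an unadjusted p under 0.05.

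**Figure D2:**
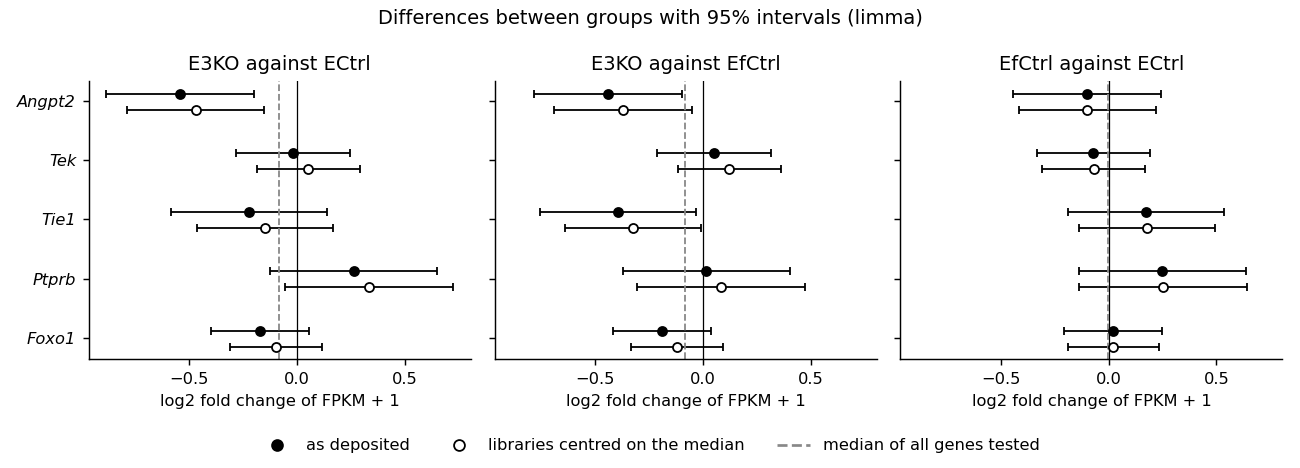
Log2 differences (horizontal axis, FPKM + 1) of the 5 tested genes in 3 comparisons from limma, with 95% intervals, for values as deposited (filled) and centred libraries (open), with the median of all genes as a dashed line. The *Angpt2* intervals lie below 0 against both controls, the *Tie1* interval does so against EfCtrl, and all intervals between the control groups span 0.

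Ratios of 2 genes within a library do not depend on the scale of that library. The *Angpt2* to *Tek* ratio was 30.6, 23.9 and 24.0 in ECtrl, 26.7, 23.0 and 27.0 in EfCtrl, and 21.8, 18.5 and 14.7 in E3KO MLEC. The ligand was thus lower relative to its receptor in every E3KO library, which held for 13.3% of 10336 genes set against *Tek* in the same way, while 3.91% were higher in every E3KO library. The *Tek* to *Foxo1* ratio ran from 1.19 to 1.27 in E3KO MLEC and from 0.987 to 1.17 in the controls. The *Tie1* to *Ptprb* ratio ran from 2.06 to 2.41 in E3KO MLEC and from 2.42 to 4.38 in the controls, so the groups barely separated. *Angpt2* relative to *Ptprb* was also lower (13.1 to 20.2 against 20.4 to 41.9), again barely separated. *Ptprb* relative to *Foxo1* was higher (1.29 to 1.42 against 0.789 to 1.22). The other 5 pairs of the 5 expressed genes overlapped between the groups, namely *Angpt2* to *Tie1*, *Angpt2* to *Foxo1*, *Tek* to *Tie1*, *Tek* to *Ptprb* and *Tie1* to *Foxo1*. In all, 5 of 10 pairs of expressed genes separated, and 6 of 15 with *Angpt1* included. No share over all pairs of genes was computed, so these counts cannot be read as particular to these genes. A share over all genes was computed for ratios to *Tek* only. These ratios share genes and are a description, with no test.

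**Figure D3:**
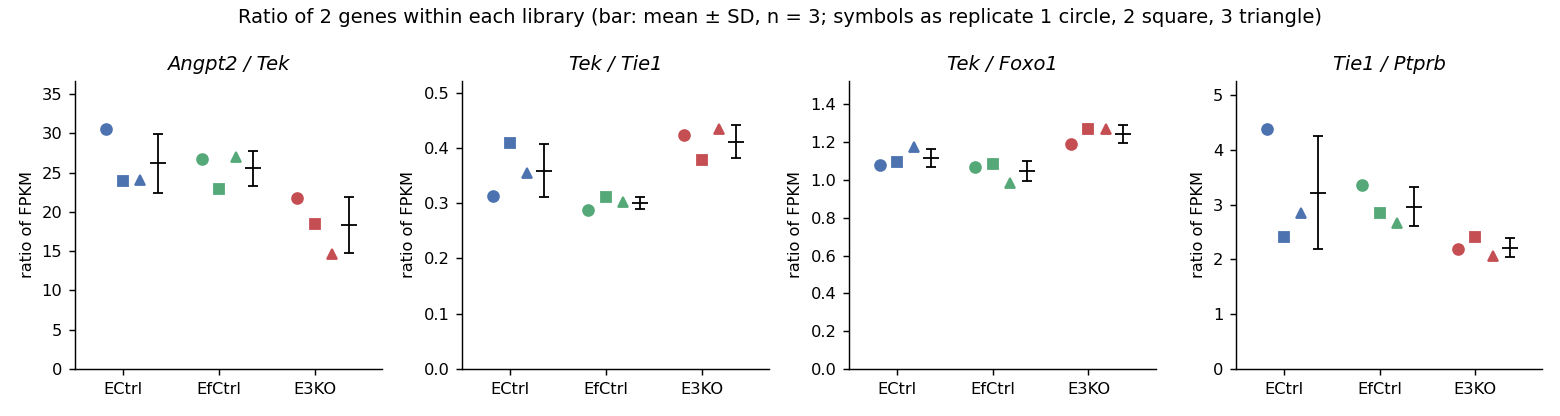
Ratio of FPKM of 2 genes within each library (vertical axes from 0) by group, with the mean ± SD of 3 libraries. E3KO libraries lie below all controls for *Angpt2* to *Tek* (14.7 to 21.8 against 23.0 to 30.6) and *Tie1* to *Ptprb*, above them for *Tek* to *Foxo1*, and among them for *Tek* to *Tie1*.

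The order of the 6 genes was set by *Angpt2* at the top and *Angpt1* at the bottom. FPKM is per length, so the levels can be set side by side. Over the 9 libraries *Angpt2* averaged 1037 FPKM, *Tie1* 128, *Ptprb* 46.7, *Tek* 44.6, *Foxo1* 39.5 and *Angpt1* 0.357. *Angpt2* exceeded *Tie1* in 9 of 9 libraries, by 3.00 ± 0.22 on the log2(FPKM + 1) scale (SD, n = 9), and *Tie1* exceeded *Ptprb* in 9 of 9, by 1.43 ± 0.33. *Ptprb* and *Tek* did not differ beyond their spread (0.05 ± 0.21, higher in 7 of 9 libraries), and in ECtrl *Tek* averaged above *Ptprb*. *Tek* exceeded *Foxo1* in 8 of 9 libraries, by 0.17 ± 0.12 on that scale. *Foxo1* exceeded *Angpt1* in 9 of 9. The pseudocount would shrink that last gap, so it is given as a ratio of FPKM: *Angpt1* to *Foxo1* ran from 0.00247 to 0.0115 in the controls and from 0.00861 to 0.0301 in E3KO MLEC. Among the 10605 genes in the controls *Angpt2* ranked 29, *Tie1* 507, *Ptprb* 1822, *Tek* 1859 and *Foxo1* 2021, so transcripts of the endothelial ligand were among the most abundant in these cultures.

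The genes whose levels followed each of the 5 most closely over the 9 libraries were found by Pearson correlation of log2(FPKM + 1). For *Angpt2* they were *Ndrg1* (r = 0.986), *Zbtb4* (0.979) and *Usp25* (0.973). For *Tie1* they were *Snx33* (0.980), the merged locus of *Haus5* and *Rbm42* (0.974) and *Lrrc32* (0.969). For *Tek* they were *Nploc4* (0.974), *Bin3* (0.961) and *Prdx2* (0.957). *Ptprb* was followed by *Herc2* (0.974), *C230081A13Rik* (0.973) and *Huwe1* (0.973), and *Foxo1* by *Tbc1d7* (0.982), *Tmem229b* (0.973) and *Pigg* (0.971). Among the 6 genes themselves, *Tie1* and *Foxo1* had r = 0.84, *Angpt2* and *Foxo1* 0.72, *Angpt2* and *Tie1* 0.69, and *Angpt2* and *Ptprb* -0.54. The 9 points share group structure and library scale, so these values are descriptions.

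Other ligands of the family gave few transcripts. Of 8 angiopoietin-like and other Tie ligand genes, 2 reached the minimum and 0 passed the test, with a median difference of -0.042 against -0.083 over all genes. *Angpt4*, the third angiopoietin that binds TIE2, did not exceed 0.106 FPKM. *Svep1*, a matrix protein reported to bind TIE1, did not exceed 0.0181 FPKM. *Angptl4*, a lipoprotein lipase inhibitor that does not bind Tie receptors, was at 30.3 ± 4.25 FPKM (SD, n = 6) in the controls and 31.8 ± 7.44 (SD, n = 3) in E3KO MLEC (adjusted p = 0.862 by limma). *Angptl2* differed by -0.14 (SE 0.11, adjusted p = 0.48 by limma).

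Partners of TIE2 and genes of its downstream signalling also passed in no case. Of 14 partner, adaptor and PI3 kinase genes, integrins among them, 11 were tested. Of these, 0 were higher and 0 lower, with a median difference of -0.080. Among them *Pik3cb*, a catalytic subunit of PI3 kinase, differed by -0.23 (SE 0.08, adjusted p = 0.15 by limma). *Pik3r2*, a regulatory subunit, differed by -0.58 (SE 0.25, adjusted p = 0.209 by limma). Of 10 genes of the AKT and FOXO arm 9 were tested, with 0 passing in either direction. The median was -0.16, but -0.012 without the library labelled E3KO replicate 1 and 0.049 with centring as well. *Foxo4*, a relative of *Foxo1*, had means of 9.31 ± 0.652 FPKM (SD, n = 6) and 7.47 ± 0.533 (SD, n = 3), a log2 difference of -0.28 (SE 0.09, adjusted p = 0.124 by limma). *Sgk1*, a kinase that phosphorylates FOXO proteins, differed by -0.39 (SE 0.16, adjusted p = 0.196 by limma).

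Of 18 genes known as FOXO targets in various tissues, 17 were tested, 1 rose and 0 fell against both controls, where 1.54% of all genes rose and 3.26% fell. With a mean-variance trend in limma 3 of them fell, and without ECtrl replicate 2, 2 fell. The riser was *Pdk4*, a kinase that restrains pyruvate oxidation. It was at 1.50, 4.43 and 4.10 FPKM in ECtrl, 2.68, 4.82 and 3.39 in EfCtrl, and 9.17, 10.1 and 11.7 in E3KO MLEC, so every E3KO library was above every control, as held for 5.18% of genes tested. Its log2 difference was 1.39 (SE 0.26, adjusted p = 0.0279 by limma), and it remained called in 5 of the 9 fits that left out 1 library, with an adjusted p of 0.04996 without the library labelled E3KO replicate 1. Several others just missed the threshold on the lower side, and these are named after their values were seen. *Cdkn1b*, a cell cycle inhibitor, differed by -0.53 (adjusted p = 0.0502), *Pik3ip1*, a PI3 kinase inhibitor, by -1.23 (0.0513), *Trib1*, a pseudokinase, by -0.59 (0.0524) and *Sesn1*, a stress-response regulator, by -0.75 (0.063), all by limma. Against ECtrl alone, *Cdkn1b* passed (adjusted p = 0.0462 by limma), though not after centring (0.0635), and *Pdk4* did not. The median of the list was -0.20, and it was -0.042 without the library labelled E3KO replicate 1.

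Genes of the Weibel-Palade body, the granule that stores ANGPT2, moved in both directions. Of 14 genes 10 were tested, 2 rose and 2 fell, with a median of -0.27, against 1.54% of all genes higher and 3.26% lower. *Selp*, the leukocyte adhesion molecule P-selectin, was at 15.9, 33.7 and 30.6 FPKM in ECtrl, 29.2, 32.8 and 30.3 in EfCtrl, and 74.2, 64.6 and 82.4 in E3KO MLEC (log2 difference 1.36, SE 0.22, adjusted p = 0.0182 by limma). *Edn1*, the vasoconstrictor endothelin-1, averaged 89.7 ± 17.7 FPKM in the controls (SD, n = 6) and 164 ± 22.5 in E3KO MLEC (SD, n = 3), and rose by 0.87 on the log2 scale (adjusted p = 0.0351 by limma). *Ece1*, the enzyme that processes endothelin, averaged 193 ± 30.4 and 112 ± 5.96 FPKM, and fell by 0.77 (adjusted p = 0.0194 by limma). *Rab3d*, a small GTPase of the granule, averaged 5.09 ± 1.10 and 2.41 ± 0.408 FPKM, and fell by 0.82 (adjusted p = 0.0363 by limma). *Vwf*, the main structural cargo of the granule, was under the minimum in every group, at 1.60 ± 0.488 FPKM in the controls (SD, n = 6), and is named here for its role after its value was seen.

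The Weibel-Palade calls depended on single libraries. Without the library labelled E3KO replicate 1, 1 gene of the list rose (*Selp*, adjusted p = 0.0394 by limma) and 1 fell (*Ece1*, 0.038), and *Edn1* and *Rab3d* did not pass (0.0765 and 0.0778). Without E3KO replicate 3, EfCtrl replicate 1 or EfCtrl replicate 3, 0 genes of the list passed in either direction. *Edn1* was called in 1 of the 9 fits that left out 1 library, and *Rab3d* in 2. Against ECtrl 1 gene of the list rose and 1 fell, and against EfCtrl 0 passed.

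Partners of VE-PTP at the adherens junction gave no calls. All 9 genes were tested, with 0 higher and 0 lower and a median of 0.030. *Cdh5*, VE-cadherin, was at 807 ± 104 FPKM (SD, n = 6) in the controls and 837 ± 114 (SD, n = 3) in E3KO MLEC. The smallest p in the list belonged to *Jup*, the junction protein plakoglobin, with a difference of -0.53 (SE 0.17, adjusted p = 0.12 by limma), and to *Fgd5*, an endothelial exchange factor, with -0.35 (SE 0.12, adjusted p = 0.125 by limma).

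**Figure D4:**
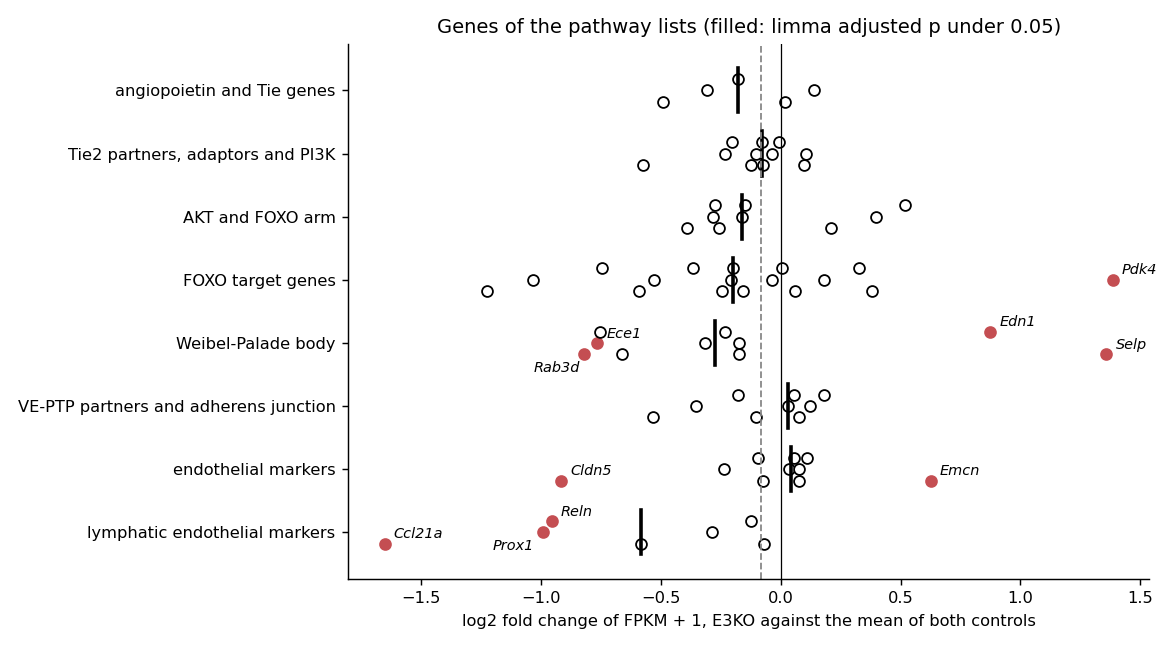
Log2 difference (horizontal axis, FPKM + 1) between E3KO and the mean of both controls for each tested gene of 8 lists, with filled red points at a limma adjusted p under 0.05, a short bar at each list's median and a dashed line at the median of all genes (-0.083). The angiopoietin and Tie genes hold no filled point, while *Selp* (1.36) and *Pdk4* (1.39) lie farthest to the right.

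Endothelial and other marker genes that moved with the groups are given beside these results, and their part in them was not tested. Of the 10 endothelial markers, all tested, 1 rose and 1 fell, with a median of 0.044, where 1.54% of all genes rose and 3.26% fell. *Emcn*, the sialomucin endomucin, rose by 0.63 on the log2 scale, with 973 ± 105 FPKM in the controls (SD, n = 6) and 1495 ± 54.7 in E3KO MLEC (SD, n = 3; adjusted p = 0.026 by limma). *Cldn5*, a tight junction protein, fell by 0.92, with 217 ± 42.5 and 114 ± 15.6 FPKM (adjusted p = 0.0322 by limma). Without the library labelled E3KO replicate 1 neither passed (adjusted p = 0.054 and 0.0704 by limma).

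Of the 7 lymphatic endothelial markers, 3 fell and 0 rose, with a median of -0.58, where 3.26% of all genes fell. *Angpt2* is itself known to be abundant in lymphatic endothelium. *Prox1*, the regulator of lymphatic identity, fell to 67.3 ± 10.8 FPKM (SD, n = 3), a log2 difference of -0.99 (adjusted p = 0.0131 by limma). *Reln*, the secreted glycoprotein reelin, fell by 0.96, with 66.9 ± 11.0 FPKM in the controls (SD, n = 6) and 33.6 ± 1.04 in E3KO MLEC (SD, n = 3; adjusted p = 0.0167 by limma). *Ccl21a*, a lymphatic chemokine, fell by 1.65, with 4.99 ± 2.67 and 0.773 ± 0.223 FPKM (adjusted p = 0.0381 by limma). *Lyve1* was at 1605 ± 110 FPKM in E3KO MLEC (SD, n = 3), a difference of -0.069. The summed lymphatic level was 2527 to 3341 FPKM in ECtrl, 2467 to 2803 in EfCtrl and 2275 to 2566 in E3KO MLEC. In these pooled cultures fewer cells of a type and less RNA per cell cannot be told apart. Without the library labelled E3KO replicate 1, 2 lymphatic markers fell, *Prox1* (adjusted p = 0.0285) and *Reln* (0.0343), and without E3KO replicate 3, 0 did, by limma.

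Leukocyte transcripts had a higher summed level in every E3KO library than in ECtrl, with EfCtrl between and overlapping E3KO. The sum of 8 leukocyte markers was 43.1 to 135 FPKM in ECtrl, 138 to 237 in EfCtrl and 187 to 293 in E3KO MLEC. *Lyz2*, a lysozyme gene, made up the largest part, with means of 73.2, 141 and 189 FPKM in ECtrl, EfCtrl and E3KO. *Csf1r* (1.36 and 1.40 FPKM) and *Adgre1* (0.722 and 0.716) had nearly the same means in the controls and E3KO MLEC. *Itgam*, also under the minimum, was higher in every E3KO library (1.66 to 1.98 FPKM) than in every control (at most 1.30). Such a separation held for 5.18% of genes tested. Of the list 4 genes were tested, and 0 passed in either direction. When the library labelled E3KO replicate 1 was left out, 1 of the 4 rose, the macrophage gene *Cd68* (log2 difference 1.24, adjusted p = 0.0261 by limma), which with all libraries differed by 0.80 (adjusted p = 0.165). *Cd52* and *Itgb2*, leukocyte surface proteins, had the smallest p, with differences of 1.38 and 0.86 (adjusted p = 0.137 for both by limma). *Ptprc*, the pan-leukocyte marker CD45, did not exceed 1.59 FPKM. Of 7 epithelial markers 2 were tested and 0 passed. The secretory cell gene *Scgb1a1* was at 46.2 FPKM in the library labelled E3KO replicate 1 and at or below 1.87 in the others (adjusted p = 0.472 by limma), and *Krt18*, a keratin, differed by 0.011 (adjusted p = 0.981 by limma).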

How the data were processed

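The authors aligned paired reads to mm10 with TopHat2, estimated values with Cufflinks (version 1.0.3 in the submitters' processing notes), merged transcript models and compared groups with Cuffdiff. The deposited FPKM of each of 9 libraries were analysed, as the labels group them. The authors' group FPKM were used only as named, and their fold changes, p-values and q-values were not used. Fragment counts, and so depth and counting error, are unknown. Of 37104 loci, 3751 were left out because their symbol was shared or had no library value.

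The 10605 genes averaging at least 2 FPKM in some group were tested in limma 3.58.1 under R 4.3.3, on log2(FPKM + 1) and with the 3 groups in 1 model, with Benjamini-Hochberg adjustment and a threshold of 0.05. On simulated data with 200 changed genes, the E3KO contrast with both controls recovered 71% of changes of 1 and 93% of changes of 2 on the log2 scale, with 9 false calls. Single genes were compared by exact permutation of log2(FPKM + 1). Nothing states that the reads were counted by strand. Positions and overlaps are from GENCODE M21, and loci were matched by symbol (*Adgre1* as *Emr1*, *Eng* in a locus merged with *Ak1*).

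The 6 genes, the lists and the tests were chosen with earlier results of these data known. By rule, named genes are the 6 members, the JNK genes, list genes called against both controls or, where a list held none, its 2 with the smallest p, and the 3 closest genes by correlation. *Mcph1* was added for its position. Other genes of the lists (among them *Pecam1*, *Cdh5*, *Lyve1*, *Ptprc*, *Cd68*, *Angpt4*, *Svep1*, *Pdgfrb*, *Cspg4*, *Rgs5*, *Notch3*, *Kcnj8*, *Vwf* and 4 FOXO targets that just missed the threshold) are outside this rule and were named after their values were seen. Alternatives covered the pseudocount (0.1), the minimum, centring, a mean-variance trend, the replicate number as a block, fits of 2 groups and the omission of each library. Centring with E3KO replicate 1 left out and ratios within libraries were added after seeing the data.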

Additional observations from a re-analysis of the deposited data

How the results depend on the processing

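None of the 5 tested genes was called against both controls under any of the 15 alternatives, and *Angpt2* stayed lower in E3KO MLEC, between -0.55 and -0.39 (adjusted p 0.0539 to 0.187 by limma). The number of genes called depended on the libraries and the fit, and the cause was not tested. Against both controls, 509 calls became 202 with the replicate number as a block, 329 with centring and E3KO replicate 1 left out, and 9 (without E3KO replicate 3) to 408 when 1 library was left out. Against ECtrl, 239 became 95 with no minimum, 1 with the replicate block, 0 with only 2 groups in the fit, and 0 to 215 with 1 library left out. Against EfCtrl, 101 became 17 with no minimum, 1 with the replicate block, 11 with centring and E3KO replicate 1 left out, and 1 to 218 with 1 library left out. EfCtrl against ECtrl gave 0 to 4 with 1 library left out. *Tek* against ECtrl (-0.018) turned to 0.054 with centring and 0.13 with E3KO replicate 1 also left out, and ranged from -0.065 to 0.066 with 1 library left out. With 1 library left out, *Tek* against both controls ranged from -0.029 to 0.10, *Ptprb* against EfCtrl from -0.042 to 0.11, and *Foxo1* in EfCtrl against ECtrl from -0.0055 to 0.061. By exact permutation, *Angpt1* was 0.20 without E3KO replicate 1 and 0.26 with centring as well, *Foxo1* was -0.069 and *Tek* 0.16 (p = 0.0357) with both changes. Libraries with the same number come from different mice. Their deviations correlated between -0.040 and 0.12, with 2 of 9 pairs over 0.1. Pairs with different numbers ran from -0.21 to 0.079, with 0 of 18 over 0.1. Of 9 libraries, 1 was closest to its own number in both other groups. Whether the numbers mark a shared batch was not tested. Depth per gene is unknown, which limits the low *Angpt1* values most.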

Other observations

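Promoter sequences around the annotated start were searched on both strands for the forkhead motif GTAAACA and the AP-1 motif TGANTCA, as a description. The RefSeq promoter table (GRCm38.p6) held *Tek*, *Tie1* and *Foxo1*, and neither motif was present in these 3 windows. GTAAACA was present in 3.65% of 32851 promoters and TGANTCA in 7.81%, so these letters are rare in windows of this length.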
